A study of Mus musculus with 20 samples.

Results

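The comparison described here is that of YAP1 knockout (KO) with wild-type (WT) neural stem cells, taken from the spinal cord of adult mice, during proliferation, read over all measured genes. It rests on 4 RNA sequencing libraries of neurospheres, KO replicates 7 and 8 and WT replicates 7 and 8, out of 8 libraries analysed and 20 labelled samples in 4 groups. Neurospheres are floating colonies that stem and progenitor cells form in culture, and these were grown for 7 days with EGF, FGF2 and heparin. The mouse model carries a Yap1 gene whose exon 3 is removed by Cre recombinase, and Cre was supplied by an adenovirus in which the CMV promoter drives it. The treatment text is the same for every sample, so that it does not say whether WT cells were infected or carried the same allele, and an effect of either and that of YAP1 loss cannot be told apart. The differentiation cultures of the same series, collected 5 days after the change of condition, are used only where a difference from proliferation is tested.

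YAP1 is a transcriptional co-activator that has no DNA-binding domain of its own and acts on genes through the TEAD factors. The Hippo kinase cascade holds it in the cytoplasm, and cell density, matrix stiffness and the actin cytoskeleton feed into that control. In the nervous system it is known for a part in the growth of neural progenitors and in the reactivity of astrocytes, and the ependymal lining of the spinal canal is a known source of neurosphere-forming cells in the adult cord.

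Loss of exon 3 changes what the Yap1 transcript can encode, and the sequences are shown because they say what the residual Yap1 reads can and cannot stand for. They are from the transcript Yap1-202 of GENCODE M21, which has 8 exons and 4115 bases, on the minus strand of GRCm38. Exon 3 lies at chr9:7973796-7973911 and exon 4 at chr9:7962289-7962402, both within the coding region. Capitals in exon 4 mark the in-frame stop codon that arises when exon 2 is joined to exon 4.
Yap1 exon 3: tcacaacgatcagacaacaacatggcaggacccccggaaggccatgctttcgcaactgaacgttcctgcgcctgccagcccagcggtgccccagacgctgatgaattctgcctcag
Yap1 exon 4: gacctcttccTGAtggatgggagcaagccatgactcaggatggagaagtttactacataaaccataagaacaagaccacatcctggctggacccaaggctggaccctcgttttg
Exon 3 is 116 bp long, which leaves a remainder of 2 when divided by 3, so that its removal shifts the reading frame. Without it, the stop codon at base 11 of exon 4 ends the frame after 179 codons in place of 472. Exon 3 makes up 2.82% of the transcript, and gene-level counts therefore include reads from a transcript that lacks it.

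Yap1 (gene ID 22601, chromosome 9, 7931999 to 8009565, GRCm38) was measured at 171.9 and 151.3 CPM in WT 7 and WT 8 and at 27.28 and 33.12 CPM in KO 7 and KO 8. CPM are counts scaled to the size of the library. Both KO libraries lay far below both WT libraries, with KO 7 at 15.9% of WT 7 and KO 8 at 21.9% of WT 8. On the log2 scale Yap1 fell by 2.42 (SE 0.113, n = 2 per group, edgeR adjusted p 0.000165), which goes with the labels. Wwtr1, the gene of the YAP1 paralog TAZ, stood at 93.32 and 101.6 CPM in WT against 99.54 and 108.4 CPM in KO. Its groups overlapped and its log2 fold change of 0.09 did not pass the test (edgeR adjusted p 0.442).

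Totals per library lay between 18075595 and 18940983 counts, and 12398 of 16927 listed genes had enough counts to be tested. The replicate number separated the libraries more than the genotype did. Of the variance of log2 CPM among the 4 libraries, 75.9% went with the number (7 or 8), 16.6% with the genotype and 7.57% with neither alone. KO was therefore compared with WT within a number, by a model with the number as a block, and a pair below means the KO and the WT library of 1 number. The labels do not say that a number marks a shared animal or culture, nor that replicates came from separate ones, and p-values speak only of the scatter among these libraries, possibly technical.

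Among the genes that rose in KO neurospheres were the BMP ligands Bmp3 and Bmp7, Wnt4, the proteoglycan gene Cspg4, the laminin gene Lamb2 and the ERK phosphatase gene Dusp4. Among those that fell were Foxj1, the integrin gene Itga6, Wnt7b, the filament genes Nes and Vim, and 9 of 23 cholesterol synthesis genes. In the block model 446 genes rose and 204 fell at an edgeR adjusted p under 0.05, or 3.6% and 1.65% of the genes tested, and 5.24% in either direction. Of these, 52 rose and 30 fell at least 2-fold. The median log2 fold change was 0.47 among genes that rose (0.24 to 2.77) and -0.43 among those that fell (-2.58 to -0.24). The sign was the same in both pairs for 444 of the 446 and for 204 of the 204, against 64.5% of all tested genes. The block model calls genes whose pairs agree, so these counts are largely set by the calling. Libraries did not overlap between genotypes for 283 of the 446 and 123 of the 204, while among all tested genes KO lay wholly above WT for 15.2% and wholly below for 14.9%, or 30.1% in either direction.

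These calls rest on the block. Without it no gene passed in edgeR, Yap1 included (adjusted p 0.705), while at an unadjusted p under 0.05 it gave 232 rises and 131 falls, against 1432 and 1003 with the block (19.6% of genes tested). When the differentiation libraries were added with a block within each condition, 67 genes passed, 66 of them also among the 650. With 1 block common to both conditions 2 passed, and leaving out any 1 of the 4 libraries from that fit left 1 or 2. DESeq2 with the block called 201, and 194 of these were among the 650. A set of 56 genes, 38 higher and 18 lower, was called by edgeR, DESeq2 and limma-voom on the 4 libraries and also by the fit with a block within each condition. They are referred to below as the 56 genes of all 4 fits. These fits share the 4 proliferation libraries and a block, so a call by all of them is not independent support.

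**Figure D1:**
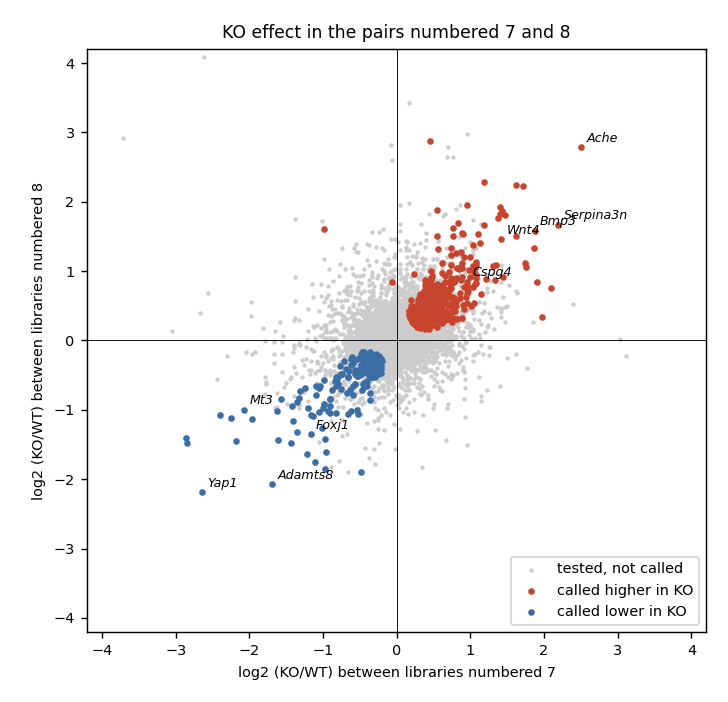
Log2 ratio of KO to WT for each tested gene between the libraries numbered 7 (x axis) and those numbered 8 (y axis), with red and blue points for genes that rose and fell at an edgeR adjusted p under 0.05. Called genes lie along the diagonal, Yap1 at the lower left and Ache at the upper right, around a cloud of uncalled genes, and 2 genes lie outside the limits of 4.2.

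Over all 12398 tested genes the log2 ratios of the pairs had a Pearson r of 0.376 and a Spearman rho of 0.383. This describes the genes of 2 pairs that share no library, and genes are not independent replicates. The sign was the same in both pairs for 64.5% of genes. It was the same for 79.1% of the 249 genes that differed at least 2-fold between the libraries numbered 7.

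Ache, which encodes the enzyme that breaks down acetylcholine (chromosome 5, 137288247 to 137294466), showed the largest rise among named genes with at least 5 CPM. It was at 1.015 and 0.748 CPM in WT 7 and WT 8 and at 6.228 and 5.812 CPM in KO 7 and KO 8. Both KO libraries stood above both WT libraries, and the rise was 2.77 on the log2 scale (SE 0.261, edgeR adjusted p 0.000133), or 6.8-fold. Serpina3n, a secreted serine protease inhibitor known as a marker of reactive astrocytes, was at 10.63 and 2.244 CPM in WT against 49 and 7.402 CPM in KO. It rose 4.22-fold within pairs, but KO 8 lay below WT 7, so the groups overlapped. Pygm, the muscle form of glycogen phosphorylase, which astrocytes also express, was at 15.76 and 8.174 CPM in WT against 34.56 and 21.88 CPM in KO, with no overlap (log2 fold change 1.26, edgeR adjusted p 8.85e-05).

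Sostdc1 and Lef1, also among the 12 largest rises, differed widely in level between the numbers. Sostdc1, a secreted BMP and Wnt antagonist, went from 4.22 CPM (WT 7) to 16.81 CPM (KO 7) but only from 0.1069 CPM (WT 8) to 0.1645 CPM (KO 8), so that its log2 fold change of 1.94 came from the libraries numbered 7. Lef1, a transcription factor of the Wnt pathway, rose by a log2 fold change of 1.60 from 3.472 to 9.811 CPM in pair 7 and from 0.2671 to 1.206 CPM in pair 8. Cd28, Sec16b, Cntn4, Col6a1 and Prkch rose with log2 fold changes from 1.22 (Prkch) to 1.65 (Cd28), and in these 5 genes the libraries of KO and WT did not overlap.

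Among the falls other than Yap1, Adamts8, a secreted metalloprotease, was at 3.258 and 6.785 CPM in WT against 0.937 and 1.535 CPM in KO. The KO libraries lay below both WT libraries (4-fold lower, log2 SE 0.259, edgeR adjusted p 0.00105). Mt3, a metallothionein of the brain that binds zinc and copper, was at 13.78 and 13.89 CPM in WT against 3.197 and 6.909 CPM in KO, again without overlap (log2 fold change -1.49, edgeR adjusted p 0.0321). Slc39a12, a zinc transporter, fell by 1.30 on the log2 scale and Zcchc12 by 1.37, and neither overlapped between genotypes.

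Apart from Foxj1, which is given below and did not overlap, the other large falls overlapped because WT 7 lay below KO 8. Mfsd2a, a transporter of lysolipids, was at 0.4273 and 14.64 CPM in WT against 0.2756 and 3.838 CPM in KO, so its log2 fold change of -1.81 came from pair 8. Rai2 (-1.71), Tox2 (-1.60), Scrn1 (-1.47), Arvcf (-1.41) and Adcy2 (-1.33) had lower counts in KO in both pairs. Of the 24 genes named by size of change, 14 did not overlap between genotypes, next to 30.1% of all tested genes. The 24 were picked for large changes of 1 sign in both pairs, so nothing is read from that count.

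**Figure D2:**
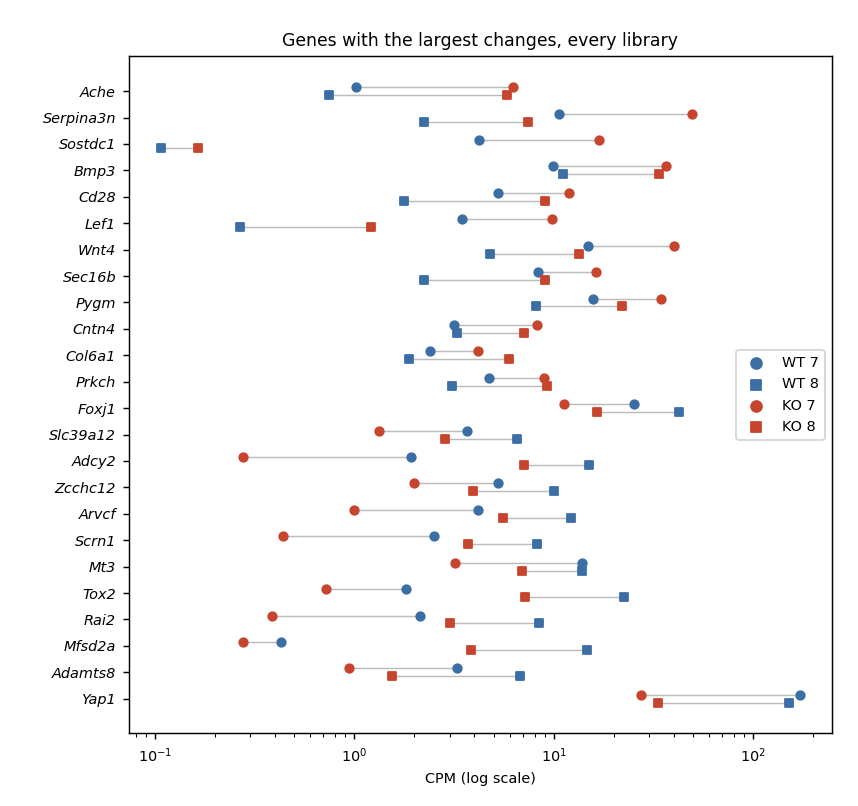
CPM of the 12 largest rises and the 12 largest falls in each of the 4 libraries, on a log scale, with circles for the libraries numbered 7, squares for those numbered 8, and a grey line joining the WT (blue) and KO (red) library of a number. In Ache and Bmp3 both KO libraries lie to the right of both WT libraries, whereas in Sostdc1 the libraries numbered 8 lie near 0.1 CPM.

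Another set of rises, chosen here after their values were seen, had smaller folds at higher counts. Hmcn1, which encodes the matrix protein hemicentin (chromosome 1, 150562500 to 150993652), had the smallest edgeR p of all tested genes. It was at 88.46 and 58.72 CPM in WT 7 and WT 8 and at 186.6 and 125.5 CPM in KO 7 and KO 8. The groups did not overlap, and the log2 ratio was 1.08 in pair 7 and 1.09 in pair 8 (edgeR adjusted p 1.16e-05). Sned1, a matrix glycoprotein, was at 73.5 and 77.1 CPM in WT against 135.5 and 168.2 CPM in KO, without overlap (log2 fold change 1.01, edgeR adjusted p 3.82e-05). Sparcl1, a secreted protein of astrocytes that promotes synapse formation, rose by 0.94 on the log2 scale, Fras1, a basement membrane protein, by 0.79, and Selenop, the plasma carrier of selenium, by 0.76. Spock2 (0.75) and Edil3 (0.65) rose as well, and in Spock2 the libraries overlapped. All 7 belong to the 56 genes of all 4 fits, which adds little, since they were chosen with their values in view.

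Falls of the same kind were those of Epb41l4a, Kcnc1, Itga6 and Ednrb. Kcnc1, a voltage-gated potassium channel (chromosome 7, 46396219 to 46438706), was at 143.2 and 159 CPM in WT against 76.06 and 88.83 CPM in KO. Epb41l4a, a band 4.1 family protein, was at 32.96 and 46.38 CPM in WT against 14.66 and 22.1 CPM in KO. In both genes the KO libraries lay below the WT libraries, with log2 fold changes of -0.88 and -1.12. Ednrb, the endothelin receptor type B, was at 51.01 and 191.3 CPM in WT against 27.67 and 115.9 CPM in KO, so it fell within each pair while KO 8 stood above WT 7. Lrrk1, a kinase related to LRRK2, fell from 14.53 and 23.13 CPM to 7.22 and 11.68 CPM, and the adhesion gene Cdh6 (-1.03) and the microtubule-binding gene Map1b (-0.94) also fell. These 7 genes too are among the 56 of all 4 fits.

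Gene groups were read by how many members passed the gene test. In all, 88 of 557 tested members passed (15.8%, 51 higher and 37 lower), against 5.24% of all tested genes. The lists were chosen with earlier results of these data known, so nothing is read from the excess.

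**Figure D3:**
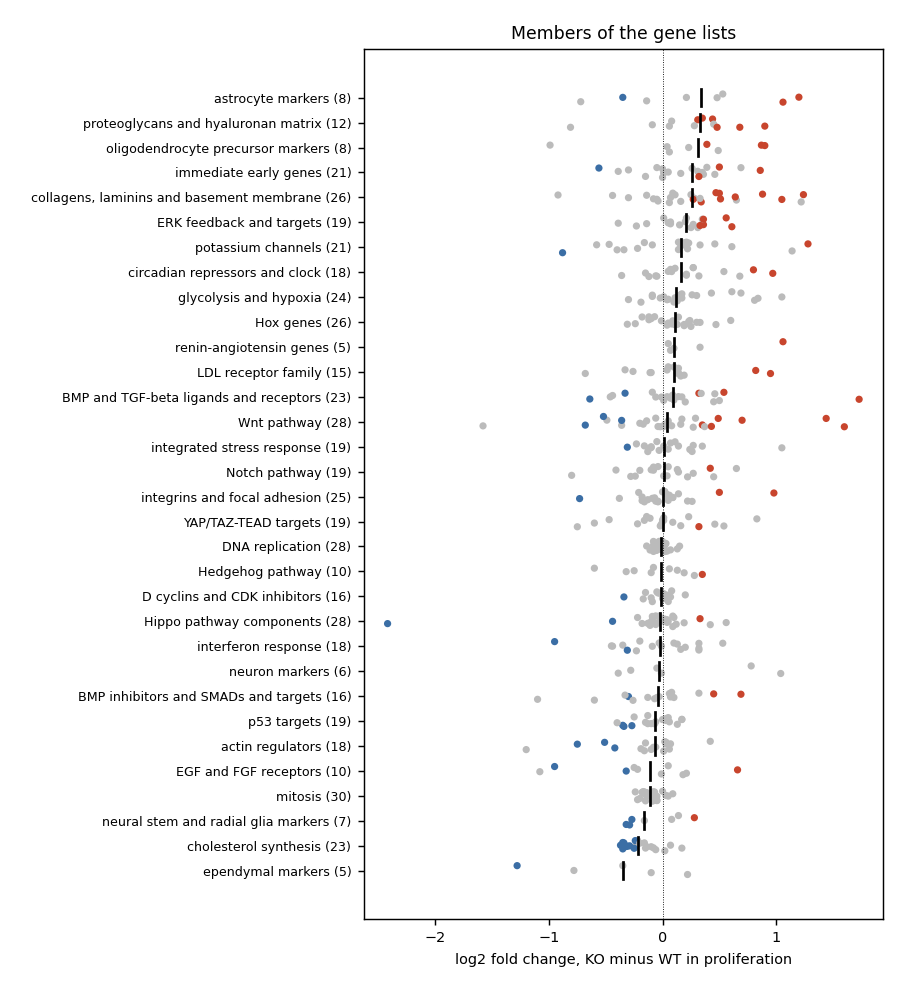
Log2 fold change of KO minus WT for each tested member of the gene lists with at least 5 tested members (number in brackets), in red or blue where the member rose or fell at an edgeR adjusted p under 0.05, with a black bar at each list's median. Proteoglycans, collagens and oligodendrocyte precursor markers lie mostly to the right of 0 and cholesterol synthesis genes mostly to the left.

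The YAP and TAZ target genes did not move as a group. Of 19 tested, 10 were above 0 and 9 below, with a median log2 fold change of 0.00, equal to that of all tested genes, and 1 passed. That gene was Tgfb2, a TGF-beta ligand, at 41.45 and 37.61 CPM in WT against 51.86 and 46.61 CPM in KO, without overlap (log2 fold change 0.32, edgeR adjusted p 0.0321). Ccn1, a matricellular protein and a target of YAP in many cells, was at 3.579 and 6.785 CPM in WT against 2.094 and 4.058 CPM in KO. It was lower in KO in each pair, but the groups overlapped and it did not pass (log2 fold change -0.75, edgeR adjusted p 0.0611). Of 28 Hippo pathway components, Dchs1, an atypical cadherin, rose, and besides Yap1 the scaffold Wwc2 fell from 36.96 and 38.31 CPM to 26.46 and 29.06 CPM.

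The promoters of changed genes were searched for GGAATG, the core of the motif that TEAD factors bind, on both strands. For each gene the first listed window was searched, from 250 bases before to 50 after a start listed in RefSeq GRCm38.p6. That start was not always the gene start. The Cntn4 window lay at 106118515 to 106118814 on chromosome 6, while the gene starts at 105677632. Other promoters of a gene were not searched, and neither was any other motif. The motif occurred in 34 of 319 windows of genes that rose (10.7%), 22 of 150 of genes that fell (14.7%) and 1145 of 9851 of all tested genes (11.6%). A match describes letters only and is no binding site.

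In both lists of extracellular matrix genes read here, the members that passed were all higher in KO. Of 12 proteoglycan and hyaluronan matrix genes 6 rose and 0 fell, with a median log2 fold change of 0.33. Of 26 collagen, laminin and basement membrane genes 9 rose and 0 fell, with a median of 0.26, against 0.00 for all tested genes. In the fit of 8 libraries with a common block, the first median was 0.16 without KO 7 and the second was 0.07 without WT 8. The summed level of the proteoglycan list was 6509 and 8516 CPM in WT against 6683 and 8126 CPM in KO, so it was higher in KO in pair 7 and lower in pair 8. Cspg4, which encodes the NG2 proteoglycan (chromosome 9, 56865104 to 56899870), was at 99.89 and 109 CPM in WT 7 and WT 8 and at 193 and 196.8 CPM in KO 7 and KO 8. The KO libraries lay far above the WT libraries (log2 fold change 0.90, SE 0.0641, edgeR adjusted p 2.69e-05).

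The lecticans are proteoglycans that bind hyaluronan between neural cells. Vcan (versican) was at 345.9 and 361.2 CPM in WT against 514.2 and 473.5 CPM in KO, and Bcan (brevican) rose by 0.35 on the log2 scale. Cspg5, a brain proteoglycan with an EGF-like domain, was at 209.2 and 263.8 CPM in WT against 277.7 and 364.4 CPM in KO. None of these 3 overlapped between genotypes, while Cd44, the hyaluronan receptor, rose by 0.31 with overlap.

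Among basement membrane genes, Lamb2, a laminin beta chain, was at 91.07 and 44.99 CPM in WT against 138.6 and 71.83 CPM in KO. It overlapped between genotypes because both libraries numbered 8 were low, yet its ratio was alike in both pairs (0.61 and 0.67). Agrn (agrin) rose from 443.5 and 400.4 CPM to 658.6 and 515.1 CPM, and Fn1 (fibronectin) from 168.7 and 234.9 CPM to 275 and 290.9 CPM. Col11a1 rose by 0.50, Hspg2 (perlecan) by 0.34 and Lama5 by 0.27 on the log2 scale, all without overlap. Of the members of both lists, Cspg4 and Lamb2 are among the 56 genes of all 4 fits, and the smaller changes named here are not.

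The receptors for matrix went both ways. Itga6, the integrin alpha chain that pairs with beta chains to bind laminin and is used as a stem cell surface marker (chromosome 2, 71786886 to 71858427), was at 133.3 and 122.8 CPM in WT against 78.71 and 75.5 CPM in KO. Itga5, the alpha chain of the fibronectin receptor, was at 96.04 and 67.48 CPM in WT against 131.2 and 99.3 CPM in KO. Neither gene overlapped between genotypes, with log2 fold changes of -0.73 (edgeR adjusted p 7.72e-05) and 0.50 (edgeR adjusted p 0.001). Itga8 also rose, and these were the 3 calls among 25 integrin and focal adhesion genes.

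Of 18 actin regulators 3 fell and 0 rose, with 8 above and 10 below 0. Anxa2, which links membranes to actin, was at 60.2 and 53.75 CPM in WT against 41.67 and 38.27 CPM in KO, without overlap. Cnn2 (calponin) fell by 0.75 and Tagln2 (transgelin) by 0.42 on the log2 scale.

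Of the BMP ligands, Bmp3 and Bmp7 rose. Bmp3, an atypical BMP that dampens signalling by other BMPs (chromosome 5, 98854415 to 98884053), was at 9.935 and 11.11 CPM in WT 7 and WT 8 and at 36.49 and 33.5 CPM in KO 7 and KO 8. The KO libraries were 3.32-fold higher, with no overlap (log2 fold change 1.73, SE 0.109, edgeR adjusted p 1.86e-05). Bmp7, a ligand that activates SMAD signalling, was at 37.76 and 41.03 CPM in WT against 52.2 and 62.78 CPM in KO. Chrdl1, a secreted BMP antagonist, rose by 0.45 on the log2 scale, and Inhbb, an activin subunit, fell by 0.33.

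Id genes are direct SMAD targets that hold back differentiation. Id2 was at 22.27 and 25.22 CPM in WT against 37.59 and 38.71 CPM in KO, and Id3 at 140.7 and 127.6 CPM in WT against 118.2 and 100.8 CPM in KO. The genotypes did not overlap in either gene, and the directions were opposite, with log2 fold changes of 0.69 for Id2 and -0.30 for Id3. Of 23 BMP and TGF-beta ligands and receptors 3 rose and 2 fell, and of 16 inhibitors, SMADs and targets 2 rose and 1 fell.

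Of 28 Wnt pathway genes 6 rose and 3 fell. Wnt4 (chromosome 4, 137277635 to 137299501) was at 14.9 and 4.808 CPM in WT against 39.96 and 13.38 CPM in KO. Its libraries overlapped between genotypes, since those numbered 8 were lower, but the log2 ratio was 1.42 in pair 7 and 1.46 in pair 8 (edgeR adjusted p 4e-05). Wnt7b was at 116.3 and 111.3 CPM in WT against 65.48 and 76.82 CPM in KO, without overlap, and Wnt7a fell by 0.36 on the log2 scale. The Frizzled receptors were divided, with Fzd9 (0.70) and Fzd1 (0.35) higher and Fzd3 (-0.52) lower in KO. Nkd1, an inhibitor that the pathway itself induces, rose by 0.49.

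Feedback genes of the ERK pathway, which growth factors such as EGF and FGF2 induce, were mostly above 0. Of 19 tested 16 were above 0, 5 rose and 0 fell, with a median log2 fold change of 0.21. In the fit of 8 libraries with a common block that median was 0.36 without KO 7, -0.01 without KO 8 and 0.10 without WT 7. Dusp5 and Dusp4 encode phosphatases that inactivate ERK. Dusp5 was at 10.52 and 10.26 CPM in WT against 16.59 and 15.19 CPM in KO, without overlap, and Dusp4 rose by 0.56 on the log2 scale with overlap. Etv5, an ETS transcription factor downstream of FGF receptors, was at 1016 and 815 CPM in WT against 1264 and 1083 CPM in KO. Spry1 (0.33) and Spry4 (0.36), which encode Sprouty inhibitors of receptor signalling, completed the 5.

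Ligands and receptors of the same pathways moved in different directions. Tgfa, a ligand of the EGF receptor, was at 15.28 and 15.65 CPM in WT against 26.07 and 23.03 CPM in KO. Hbegf, another ligand of that receptor, was at 12.55 and 48.3 CPM in WT against 6.283 and 25.44 CPM in KO. Tgfa did not overlap between genotypes, whereas Hbegf did, because the libraries numbered 8 were higher, and it fell within each pair by a like amount (-0.99 and -0.92). Fgfr3, an FGF receptor, fell by 0.32 on the log2 scale, but stood at 0.05 and 0.16 when KO 7 or WT 8 was left out of the fit of 8 libraries with a common block. Of 21 immediate early genes 3 rose and 1 fell. Fosl2, an AP-1 subunit, rose from 35.9 and 25.81 CPM to 70.66 and 42.55 CPM, Klf4 rose by 0.50, and Jun rose by 0.32.

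**Figure D4:**
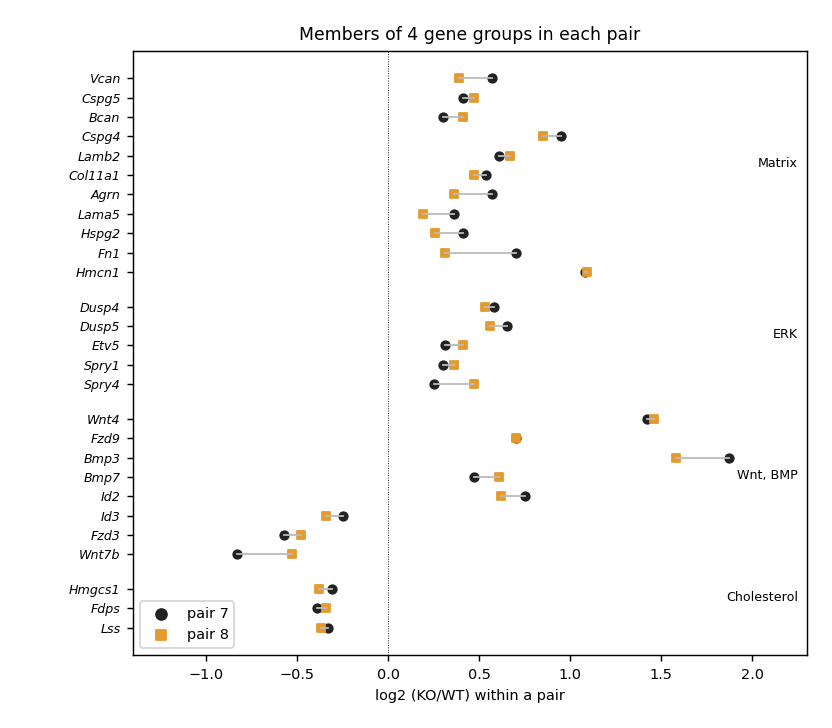
Log2 ratio of KO to WT within pair 7 (black circles) and within pair 8 (orange squares) for selected members of 4 gene groups. Matrix and ERK feedback genes lie to the right of 0 in both pairs and the cholesterol genes to the left, while Wnt and BMP genes lie on both sides.

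Some cholesterol synthesis genes fell in KO by small amounts. Of 23 tested 20 were below 0, 9 fell and 0 rose, with a median log2 fold change of -0.22. In the fit of 8 libraries with a common block that median was -0.45 without KO 7, -0.35 without WT 8, -0.00 without KO 8 and 0.01 without WT 7. Hmgcs1, the enzyme that makes HMG-CoA, was at 1406 and 1206 CPM in WT against 1134 and 925.5 CPM in KO, without overlap. Fdps, which makes farnesyl diphosphate, was at 358.4 and 223.4 CPM in WT against 273.2 and 176.4 CPM in KO, and Lss (lanosterol synthase) fell by 0.35, but stood at 0.04 when WT 7 was left out of the fit of 8 libraries with a common block. In these last genes the libraries numbered 8 were lower in both genotypes and the groups overlapped. None of the cholesterol genes was among the 56 of all 4 fits. Of 15 tested LDL receptor family genes 10 were above 0 and 5 below, and 2 rose and 0 fell. The 2 were Lrp1 and Lrp1b, large endocytic receptors, which rose by 0.82 and 0.95.

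None of 30 mitosis genes and none of 28 DNA replication genes passed in edgeR. With 5.24% of all tested genes called, 0 in lists of this size is near the share of all genes. Of the 30 mitosis genes 26 were below 0, with a median of -0.11 (-0.17 without WT 8 in the fit of 8 libraries with a common block). Cdc20, an activator of the anaphase-promoting complex, was at 208.9 and 217.3 CPM in WT against 177.6 and 193.1 CPM in KO (edgeR adjusted p 0.1). Cenpf, a kinetochore protein, was at 190.3 and 225.4 CPM in WT against 171.8 and 184.5 CPM in KO (edgeR adjusted p 0.0877). Both KO libraries lay below both WT libraries in each. Ccnd2, the D-type cyclin 2, fell from 466 and 553.8 CPM to 332.2 and 484 CPM with overlap (log2 fold change -0.34, edgeR adjusted p 0.0327). The p53 targets Ccng1, Aen and Zmat3 fell by 0.35, 0.34 and 0.27 on the log2 scale, 3 of 19 tested, and Ccng1 stood at 0.03 when WT 8 was left out of the fit of 8 libraries.

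The labelled cell type was checked against its markers. Transcript levels per length in the authors' TPM values were high for Fabp7 (4479 to 6737 TPM over the 4 libraries), Vim (1666 to 2722 TPM) and Nes (374.7 to 492 TPM), and Sox2 lay between 138.8 and 161.8 TPM. Gfap, the astrocyte filament, was at most 0.5343 CPM and Prom1 at most 0.9617 CPM. Other astrocyte genes were present, such as the glutamate transporter gene Slc1a3 (606.6 to 891.5 CPM), and the astrocyte list summed to 1257 to 1668 CPM. Summed microglial markers reached 0.6063 CPM, endothelial markers 2.671 CPM and mural and fibroblast markers 4.606 CPM. The neuron list summed to 1099 to 1312 CPM, nearly all of it from Map2 (1094 to 1295 CPM), while Rbfox3 was at most 0.1102 CPM. The oligodendrocyte list summed to 95.99 to 256.8 CPM, mostly from Cnp (93.32 to 249.1 CPM), while Mbp was at most 0.7677 CPM. Olig1 (2667 to 4095 TPM) and Olig2 (1051 to 1277 TPM), factors of the oligodendrocyte lineage that spinal cord neurospheres also express, were abundant in every library.

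The neural stem and radial glia list had 3 falls and 1 rise among 7 tested members. Nes (nestin) was at 1572 and 1353 CPM in WT against 1280 and 1109 CPM in KO, without overlap (log2 fold change -0.29, edgeR adjusted p 0.023). Fabp7, a fatty acid binding protein of radial glia, fell by 0.32 and Vim (vimentin) by 0.27. Sox9, a transcription factor of stem cells and astrocytes, rose by 0.28, while Sox2 did not pass (log2 fold change 0.08, edgeR adjusted p 0.573). The summed level of the list was 5530 and 5515 CPM in WT against 4660 and 4598 CPM in KO.

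Of 8 tested oligodendrocyte precursor markers 7 were above 0, 3 rose and 0 fell. The median was 0.31 (0.54 without WT 8 in the fit of 8 libraries with a common block). Gpr17 was the member below 0 (log2 fold change -0.99, at most 3.206 CPM, edgeR adjusted p 0.197). The pairs numbered 7 and 8 differed in sign for Nkx2-2 (-0.68 and 0.31) and Ptprz1 (0.23 and -0.12). Besides Cspg4, Cntn1, an adhesion molecule, was at 27.24 and 40.39 CPM in WT against 52.58 and 70.51 CPM in KO. Olig1 was at 2792 and 3006 CPM in WT against 3617 and 3977 CPM in KO. All 3 were without overlap. Olig2 (log2 fold change 0.23, edgeR adjusted p 0.0771) and Pdgfra, the receptor that defines these precursors in tissue (3.846 to 7.512 CPM, edgeR adjusted p 0.187), did not pass, and Sox10 was at most 0.3838 CPM. The summed list was 6284 and 6102 CPM in WT against 7759 and 7307 CPM in KO. Cspg4 belongs also to the proteoglycan list. The part of a changed mix of cells in the matrix and precursor results was not tested, and in bulk RNA more cells of a type and more transcript per cell cannot be told apart.

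Astrocyte genes were also mixed. S100b, a calcium-binding protein of astrocytes and some precursors (chromosome 10, 76253836 to 76261319), was at 28.95 and 19.88 CPM in WT against 71.65 and 42.11 CPM in KO. Agt, angiotensinogen, was at 11.06 and 12.56 CPM in WT against 23.2 and 25.94 CPM in KO. Both genes were higher in both KO libraries than in either WT library (edgeR adjusted p 2.69e-05 and 0.000207). Gja1, the gap junction protein connexin 43, fell by 0.35 on the log2 scale.

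Foxj1, the master regulator of motile cilia and a defining gene of ependymal cells (chromosome 11, 116330704 to 116335499), was at 25.27 and 42.37 CPM in WT 7 and WT 8 and at 11.19 and 16.5 CPM in KO 7 and KO 8. The KO libraries lay below both WT libraries, with log2 ratios of -1.17 and -1.35 in the pairs (edgeR adjusted p 4.29e-05). It was the only call among 5 tested ependymal markers, of which 4 were below 0, with a median of -0.35 (-0.20 without WT 8 in the fit of 8 libraries with a common block). The list held 11 markers, and the rest had too few counts to be tested. Besides Foxj1, the tested ones were Rfx2 (-0.35), Rfx3 (-0.10), Hydin (0.22) and Dynlrb2 (-0.78, at most 1.122 CPM). None of these passed (edgeR adjusted p 0.303, 0.489, 0.344 and 0.335).

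Other lists held isolated calls. Jag1, a Notch ligand, rose by 0.42 and Gas1, a Hedgehog co-receptor, by 0.35 on the log2 scale, each the only call of its pathway. Bhlhe41, a circadian repressor, was at 5.128 and 5.503 CPM in WT against 10.31 and 10.47 CPM in KO, and Dbp, an output gene of the clock, rose by 0.80. Gbp3 and Ifitm3, which interferons induce, fell by 0.95 and 0.31. Phgdh, the first enzyme of serine synthesis, fell by 0.31. None of 26 Hox genes and none of 24 glycolysis and hypoxia genes passed in edgeR, which is near the 5.24% of all tested genes in lists of this size. At an unadjusted p under 0.05, 11.6% of all tested genes were higher and 8.09% lower.

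Whether these effects were particular to proliferation was tested against the KO effect in differentiation, in 1 edgeR fit of the 8 libraries with a block within each condition. The effects of the 2 conditions share no library. For 38 of 13046 genes (0.291%) the effect differed, 33 of them more positive (0.253%) and 5 more negative (0.0383%) in proliferation. In 30 of the 33 the effect was above 0 in proliferation and below 0 in differentiation. In 5 of the 5 it was the other way round. The genes were selected by this difference, so opposite signs are in part set by the selection. Of the 38, 24 passed for the KO effect in differentiation (edgeR adjusted p under 0.05), and 24 were among the 650 called in proliferation. No gene passed the test of the difference without the block, and 24 genes passed with limma-voom and 152 with DESeq2.

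Serpina3n gave the smallest p of this test. In differentiation it was at 55.98 and 41.5 CPM in WT against 38.69 and 27.99 CPM in KO, a log2 fold change of -0.55, against 2.08 in proliferation (edgeR adjusted p of the difference 0.00319). Agt was at 1048 and 1012 CPM in WT against 936 and 874 CPM in KO in differentiation, and its effects of 1.06 and -0.19 differed as well (edgeR adjusted p 0.02). Neither Serpina3n nor Agt passed for the KO effect in differentiation itself (edgeR adjusted p 0.0552 and 0.303). Lss and Fdps, lower in proliferating KO cells, were higher in differentiating ones, with log2 fold changes of 0.74 and 0.67 (edgeR adjusted p of the difference 0.02 and 0.0273).

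Of the 446 genes that rose in proliferation, 223 were above 0 in differentiation, next to 51.8% of all genes. Of the 204 that fell, 137 were below 0, or 67.2%, next to 48.1% of all genes. In differentiation 45 genes rose (0.345%) and 188 fell (1.44%) in the fit of 8 libraries. That same fit called 67 genes in proliferation. The 446 and 204 come from the fit of 4 libraries and are not to be set against these counts. Called the same way in both conditions were 21 that rose and 23 that fell, while 10 were higher in proliferating and lower in differentiating KO cells and 3 the reverse. Here calls in proliferation are those of the 4 libraries and calls in differentiation those of the fit of 8. Among the shared calls were the rises of Bmp3 (1.73 in proliferation, 1.01 in differentiation), Hmcn1 (1.09 and 1.30), Bmp7 (0.54 and 0.75) and Jag1 (0.42 and 0.73). The shared falls held Foxj1 (-1.28 and -1.34), Map1b (-0.94 and -0.89), Anxa2 (-0.51 and -0.91) and Wnt7b (-0.68 and -0.57). In the fit of 8 libraries Bmp7, Jag1 and Anxa2 did not pass in proliferation (edgeR adjusted p 0.0678, 0.138 and 0.202). Bmp3, Hmcn1, Foxj1, Map1b and Wnt7b did. For Cspg4 (0.90 and 0.40) and Itga6 (-0.73 and -0.05) the difference between conditions did not pass (edgeR adjusted p 0.132 and 0.0682).

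**Figure D5:**
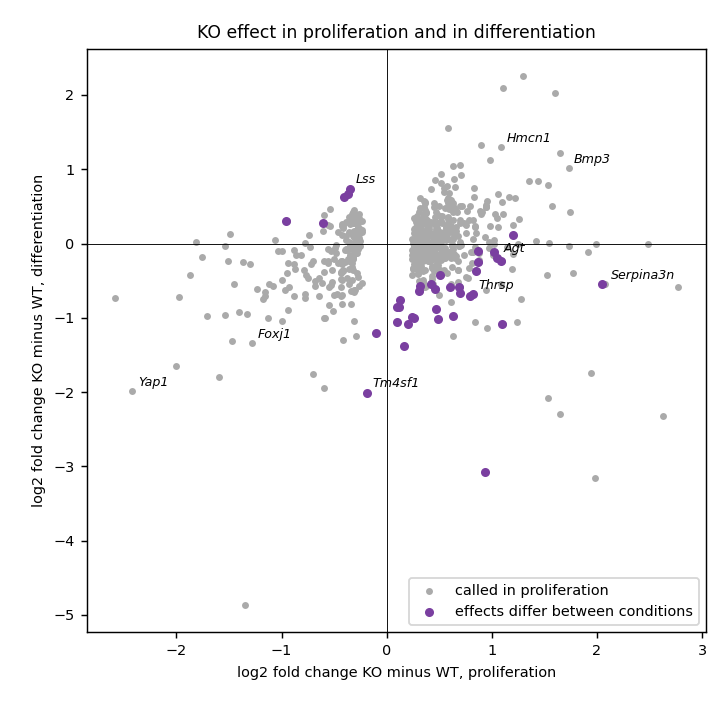
Log2 fold change of KO minus WT in proliferation (x axis) and in differentiation (y axis) for the genes called in proliferation (grey) and, in purple, the 38 genes whose effect differed between conditions, with their x values from the fit of 8 libraries. Most purple points lie at the lower right, above 0 in proliferation and below 0 in differentiation, and Lss lies at the upper left.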

How the data were processed

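The values are the authors' deposited estimated counts per gene (expected counts, 6.51% of them not whole), rounded to whole numbers here; the authors' deposited TPM values were used only to state levels per length. Libraries were stranded poly(A) libraries on DNBSEQ, per the labels' protocols. For the aligner, the counting tool and the use of strand, nothing is stated in the labels or headers, so reads of overlapping genes and near-identical copies may be shared. The submitters' processing notes name GRCm39, but 85.4% of 16878 genes have the same start as in RefSeq GRCm38.p6, so coordinates are those of GRCm38. The deposited table held columns for 8 of 20 labelled samples, and the other 12 were not analysed here. It also held 12 per-library columns of 4 libraries that match no label, not used, and the authors' own comparisons, not used.

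Genes passing filterByExpr were tested in edgeR 4.0.16 (R 4.3.3, TMM, robust quasi-likelihood, two-sided) on the 4 libraries with genotype and number as terms, which leaves 1 residual degree of freedom, with Benjamini-Hochberg adjustment over 12398 genes and a threshold of 0.05. CPM are TMM-scaled, and ratios within a pair use a prior count of 2. The script was tested on simulated data. With 2 against 2 an exact permutation test cannot give a p below 0.333. Alternatives were limma-voom (limma 3.58.1), DESeq2 1.42.0, other scalings, filters and blocks. Named genes were Yap1, Wwtr1, the 12 largest rises and falls of 1 sign in both pairs whose higher group reached 5 CPM, up to 4 members per list by p, and up to 8 genes of the difference between conditions. Hmcn1, Sned1, Sparcl1, Fras1, Selenop, Epb41l4a, Ednrb, Cdh6, Map1b, Lrrk1, Edil3, Spock2 and some list members were added after their values were seen. The values of some genes are left out of this account. The comparison and the 38 lists were chosen with earlier results of these data known.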

Additional observations from a re-analysis of the deposited data

Results flagged for a closer look

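The KO effect differed between proliferation and differentiation for 38 genes in the test of the difference itself (edgeR with a block within each condition, adjusted p under 0.05, 2 libraries per group), and the named ones are given as the log2 effect in proliferation minus that in differentiation. The difference was positive for Serpina3n (2.60), Tm4sf1, a membrane protein of the tetraspanin-like L6 family (1.82), Thrsp, a regulator of lipid synthesis (1.50), Parp3, an ADP-ribosyltransferase of DNA repair (1.50), Txnip, an inhibitor of thioredoxin (1.49), Agt (1.24), Fosl2 (1.22), Cd109, a co-receptor that restrains TGF-beta signalling (1.10), Cntn1 (0.96) and Tgfb2 (0.95). It was negative for Hbegf (-1.26), Lss (-1.10) and Fdps (-1.04). Tm4sf1 and Cd109 were not called in proliferation, with log2 fold changes of -0.19 and -0.09 there and of -2.01 and -1.20 in differentiation. Thrsp was at 4.914 and 19.55 CPM in WT against 9.315 and 33.45 CPM in KO in proliferation, and at 392.2 and 467.1 CPM in WT against 247.4 and 287.3 CPM in KO in differentiation.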

How the results depend on the processing

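The replicate number decides how many genes pass. The labels do not say that numbers pair the samples, but the deviations of number 7 from number 8 correlated between WT and KO across genes (r 0.822 in proliferation, 0.711 in differentiation). With the replicate block 650 genes were called (446 higher, 204 lower) and without it 0 (0 and 0), with Yap1 at -2.42 and an adjusted p of 0.705. In 8 libraries there were 67 calls (43 higher, 24 lower) with a block within condition, 2 (1 and 1) with a common block and 1 (0 and 1) with no block. DESeq2 with the block gave 201 (141 and 60). List members called went from 88 to 0 without the block, 17, 2 and 1 in those 3 fits of 8 libraries, and 42 with DESeq2. Leaving out each library in turn, in 8 libraries with a common block, where the lone library is assumed to vary like the others, gave 1 to 2 calls (0 to 0 higher, 1 to 2 lower), 1 to 1 list members, and a Yap1 log2 fold change from -2.60 to -2.27 (adjusted p 0.00453 to 0.0245). The number of genes whose effect differed between conditions, 38, was 0 without the block, 0 with a common block, 24 with limma-voom, 141 with no filter and 152 with DESeq2. Of the 650 called genes, 640 to 645 kept their sign in the leave-one-out fits and 649 with DESeq2. Among genes named here signs turned in leave-one-out fits for Fgfr3 (0.05 without KO 7, 0.16 without WT 8), Tm4sf1 (0.00 without KO 8, 0.25 without WT 7), Lss (0.04), Cd109 (0.00) and Sox2 (-0.08) without WT 7, and Ccng1 (0.03) without WT 8. Of 36 list medians, 18, 14, 17 and 19 moved by more than the SD of their values in the 2 pairs without KO 7, KO 8, WT 7 and WT 8. The cause of these changes was not tested. Other scalings (RLE 528, upper quartile 624), limma-voom (653), no filter (880), a filter of 1 CPM (657) and a fit that was not robust (705) gave counts within 1.5 times the main one. No scaling moved the median of all genes from 0.00. With 1 residual degree of freedom the spread is mostly borrowed across genes (median prior degrees of freedom 10.7), and 38 called genes had under 5 CPM in the higher group.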
